A study of Mus musculus with 18 samples.

Results

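The genes described here mark the cells of the brain's blood vessels. They were 39 endothelial and mural genes named by symbol from textbook knowledge, with no measured value in the rule, and all 39 were found among the 55401 gene identifiers of the count table. The genes were, however, chosen with earlier results of these data known. By role, 26 belonged to endothelial cells (6 junction and surface genes, 8 receptors, 5 transporters of the blood-brain barrier, 2 transcription factors and 5 others), 8 to pericytes and 3 to the contractile apparatus of smooth muscle, and 2 were vascular adhesion genes. Poly(A) RNA was sequenced from the BNST, the bed nucleus of the stria terminalis, and the prelimbic medial prefrontal cortex (mPFC) of male wild-type C57BL/6 mice aged 6 to 8 weeks, to ask how acute and persistent pain differ in these regions. The formalin mice were killed 24 h after 10 µL of 1% formalin was injected into the paw and the CFA mice 72 h after 10 µL of 50% complete Freund's adjuvant, while the control mice are described as having no injection. Each of the 6 groups held 3 libraries from 3 brains, 18 in all, and the labels say that both regions of each brain were dissected. In control, though, the study's library names number the BNST libraries 1, 2 and 4 and the mPFC libraries 2, 3 and 4, read here as animal numbers. Only 2 numbers are shared, and whether equal numbers mark 1 mouse is not stated. The same names carry L1, L2 or L3, read here as the sequencing lane, which the methods do not give. The labels and the methods give the control mice as untreated, while the study's legends call them sham-treated, and no vehicle is named for them. The agent and the time after it changed together, so their parts in a difference between formalin and CFA cannot be told apart.

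Endothelial cells of the brain are sealed by tight junctions and carry nutrients across the blood-brain barrier with dedicated transporters, among them Slc2a1 for glucose and Mfsd2a for lysophospholipids that carry docosahexaenoic acid. Pericytes share the basement membrane of the capillaries and are kept there by platelet-derived growth factor signalling through Pdgfrb, while smooth muscle cells wrap the arterioles and hold contractile proteins such as Acta2 and Myl9. In bulk tissue, fewer cells of a type and less RNA per cell cannot be told apart.

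All 39 genes passed the filter on low counts, among 18994 genes tested in libraries of 14781315 to 23408503 counts. The endothelial Cldn5, the pericyte Pdgfrb and the smooth muscle Acta2 were counted in every library. Cldn5, the main tight-junction claudin of brain endothelium, had the highest level per transcript length of the junction and surface genes, at a mean of 29.7 TPM (reads scaled to transcript length and library size). On the same scale the pericyte list was led by Vtn, which encodes vitronectin, at 70.3 TPM, the transporters by Slc2a1 at 66.7 TPM, the other endothelial genes by Ly6c1 at 28.4 TPM, the adhesion genes by Mcam at 23.0 TPM, the smooth muscle genes by Myl9 at 17.5 TPM, the receptors by Eng at 8.58 TPM and the transcription factors by Sox18 at 4.65 TPM. The lowest was Tagln, a smooth muscle actin-binding protein, at 0.736 TPM, with a count of 0 in 1 library. An antisense gene overlapped 62.4% of the exon length of Tagln, and reads of the pair may not be separated. Reads of Ly6c1, Abcb1a, Slco1a4 and Acta2 may be shared with close paralogs.

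Markers of neighbouring tissue moved with the groups in the BNST. The summed level of 11 choroid plexus markers was 37.5 to 780 CPM (reads scaled to library size) in BNST control, 3012 to 9134 after formalin and 189 to 18148 after CFA, where replicate 2 held the highest value. The 8 striatal markers summed to 1815 to 4126 CPM in BNST control, 1562 to 2133 after formalin and 448 to 838 after CFA, and the 8 markers of habenula and thalamus to 90.8 to 360 CPM, 170 to 246 CPM and 327 to 526 CPM. All 8 striatal markers were lower and 5 of the habenula and thalamus list were higher in BNST CFA than in control. The 8 neuron markers summed to 2804 to 3375 CPM in BNST control, 2574 to 3315 after formalin and 2935 to 4102 after CFA, which overlapped, with Elavl4 and Nefl called higher and Rbfox3 lower after CFA. Of the 8 astrocyte markers, Gfap and Gjb6 were called higher after CFA and Aqp4 after formalin. In the mPFC the choroid plexus markers summed to 3.90 to 29.4 CPM, and 1 of the 11 was at 0 in every control library. The fibroblast list held 13 genes of the cells nearest to mural cells in the vessel wall. It summed to 31.0 to 56.9 CPM in BNST control, 61.0 to 110 after formalin and 43.9 to 146 after CFA. Formalin did not overlap with control there, and BNST CFA replicate 2 held the highest value. In the mPFC the list summed to 56.0 to 94.2 CPM in control, 66.5 to 103.5 after formalin and 43.6 to 82.7 after CFA. The part of these tissues in the vascular differences was not tested.

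The genes by treatment are drawn as a map of fold changes, in which most squares of the mPFC comparisons with control are blue and the smooth muscle genes of the BNST are red in the comparison of formalin with CFA.

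**Figure D1:**
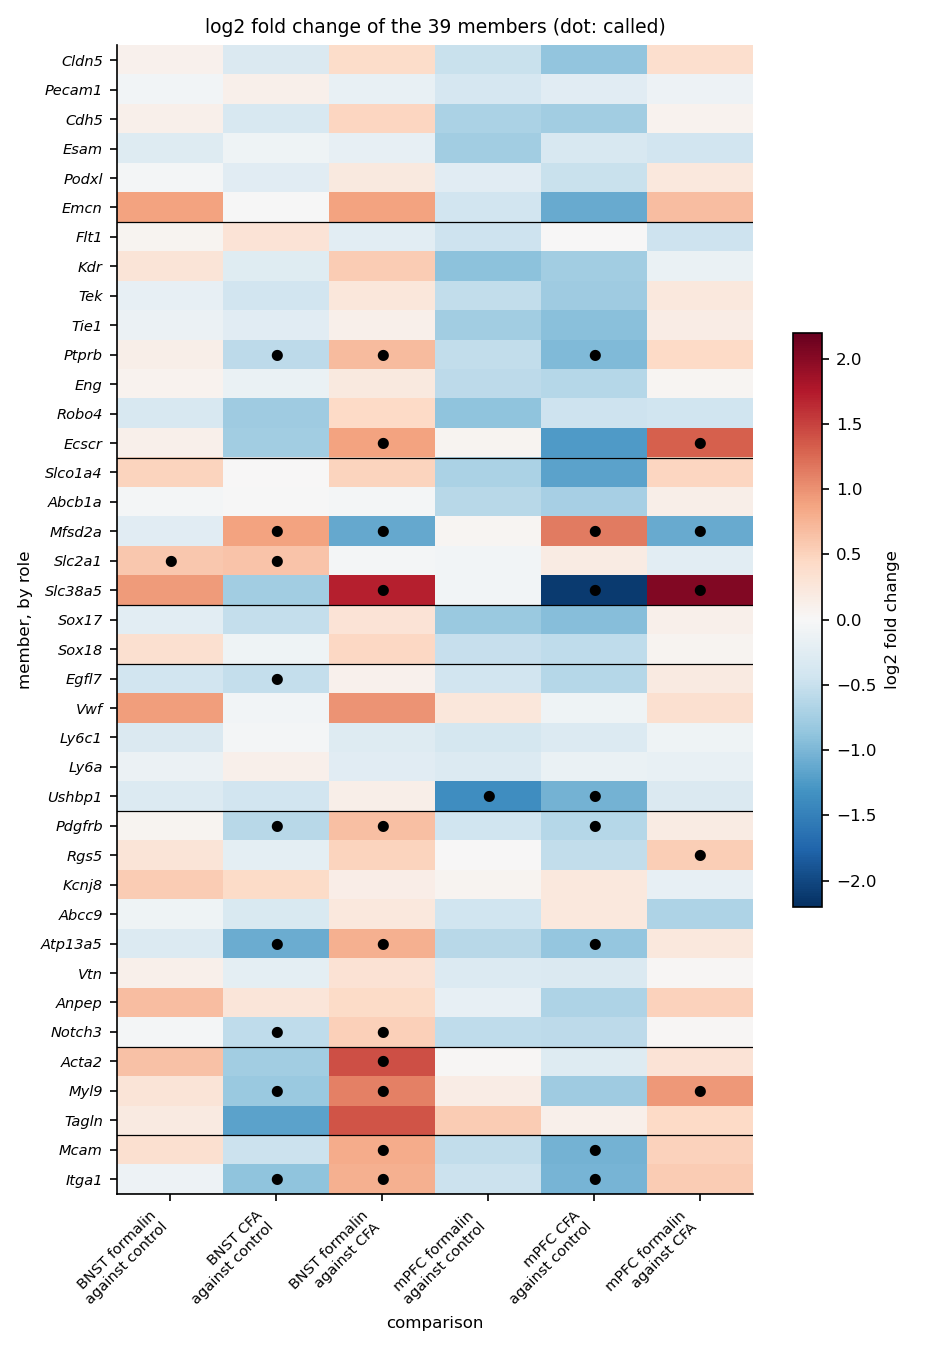
log2 fold change (colour, from blue for lower to red for higher) of the 39 vascular genes (vertical axis, in role groups parted by lines) in 6 treatment comparisons (horizontal axis). A dot marks a called gene, and in the mPFC 33 of the 39 genes were below 0 after CFA.

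The transporters moved in different directions. Mfsd2a rose after CFA in both regions, Slc38a5, an amino acid transporter for glutamine and its neighbours, was lower after CFA than after formalin in both, and Slc2a1 rose in the BNST after either injection. A gene was called where its adjusted p was under 0.05 and its log2 fold change was beyond 0.5 in either direction.

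The stretch upstream of the start is shown for Mfsd2a and Slc2a1, the transporters that rose, with matches to the motifs listed after them in capitals. RefSeq sequences of GRCm38.p6 were used, printed 5′ to 3′ and ending at the gene start that was used for the counts. Mfsd2a lies on the minus strand at chr4:122961189-122961438 and Slc2a1 on the plus strand at chr4:119108495-119108710.
Mfsd2a: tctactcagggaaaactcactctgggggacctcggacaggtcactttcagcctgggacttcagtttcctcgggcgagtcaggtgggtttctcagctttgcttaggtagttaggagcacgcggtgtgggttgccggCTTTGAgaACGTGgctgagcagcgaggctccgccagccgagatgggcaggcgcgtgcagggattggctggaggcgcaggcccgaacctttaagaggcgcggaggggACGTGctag
Slc2a1: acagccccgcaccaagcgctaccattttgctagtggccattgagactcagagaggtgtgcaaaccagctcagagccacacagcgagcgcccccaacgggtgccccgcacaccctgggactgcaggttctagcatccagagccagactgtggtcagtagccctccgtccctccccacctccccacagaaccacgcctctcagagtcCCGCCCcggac

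The motifs, searched on both strands, were CGGAAG (ETS), CTTTGA (TCF/LEF), AACAAT (SOX), ACGTG (hypoxia response), TGACG (a cAMP response core), GGGCGG (GC box), AGAACA (a glucocorticoid response core) and the CArG box. The window of Mfsd2a held 1 match to CTTTGA and 2 to ACGTG, and that of Slc2a1 held 1 GC box, written on the other strand. The 250 bases before the RefSeq start of Slc2a1, which reach past the printed window, held an ACGTG as well. In the 250 bases upstream of the RefSeq start, 27 of the 39 genes had a sequence. ACGTG occurred in 4 of these 27 and in 16.6% of 32851 mouse promoters, CTTTGA in 6 and 13.8%, GGGCGG in 11 and 32.7%, TGACG in 5 and 17.8%, AACAAT in 4 and 9.42%, AGAACA in 4 and 16.1%, CGGAAG in 1 and 13.6%, and the CArG box in Myl9 and in 1.47%. These matches describe letters and not bound sites.

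In the BNST, Mfsd2a was at 13.2, 11.1 and 16.5 CPM in control, 10.9, 11.3 and 12.2 after formalin and 30.7, 19.7 and 24.7 after CFA. All 3 CFA libraries were above every other BNST library. For CFA against control, edgeR's quasi-likelihood test gave 0.88 (standard error 0.17, adjusted p = 0.0013) on the scale of log2 fold changes, used for all changes given here, and -1.13 (standard error 0.17, adjusted p = 0.00055) for formalin against CFA. In the mPFC it was at 11.8, 11.4 and 16.1 CPM in control, 12.2, 13.7 and 14.6 after formalin and 31.4, 28.8 and 26.7 after CFA. The CFA libraries again stood above all others of the region. The change was 1.15 (standard error 0.17, adjusted p = 0.0031) for CFA against control and -1.10 (standard error 0.17, adjusted p = 0.0032) for formalin against CFA, and each of these 4 calls was kept in all 18 fits that left out 1 library. With the libraries of sequencing lane 2 alone, which leave 1 BNST control, the BNST call against control was lost (log2 fold change 0.60, adjusted p = 0.078). Formalin gave -0.25 (standard error 0.17, adjusted p = 0.45) in the BNST and 0.04 (standard error 0.17, adjusted p = 0.96) in the mPFC.

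Mfsd2a was also higher after CFA relative to the other endothelial genes. Expressed as a percentage of the summed level of the 21 endothelial genes that are not transporters, it was 4.60 to 5.59% in mPFC control, 5.90 to 9.21% after formalin and 14.01 to 18.2% after CFA. In the BNST it was 5.87 to 10.5%, 6.17 to 7.41% and 13.7 to 19.0%. The CFA values overlapped with no others in either region.

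Slc38a5 gave few reads, 8 to 81 per library. The BNST libraries held 0.927, 1.87 and 2.17 CPM in control, 3.77, 2.49 and 3.27 after formalin and 0.773, 1.48 and 0.657 after CFA. The 3 formalin libraries were above all control and CFA libraries, which overlapped, and formalin against CFA gave 1.70 (standard error 0.41, adjusted p = 0.011). Without BNST CFA replicate 1 its adjusted p was 0.052. In the mPFC the values were 1.31, 2.52 and 4.41 CPM in control, 2.66, 3.299 and 1.92 after formalin and 0.591, 0.794 and 0.515 after CFA. Every CFA library was below every control and formalin library, with -2.11 (standard error 0.45, adjusted p = 0.037) against control and 2.04 (standard error 0.46, adjusted p = 0.029) for formalin against CFA. The call against control was lost in 7 of the 18 fits that left out 1 library, with adjusted p up to 0.17, and that for formalin against CFA in the 6 that left out an mPFC formalin or mPFC CFA library, with adjusted p up to 0.13.

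Slc2a1, the glucose transporter, which choroid plexus and astrocytes hold as well, was at 58.96, 52.4 and 56.3 CPM in control, 82.6, 84.1 and 86.5 after formalin and 85.9, 103 and 70.01 after CFA in the BNST. No injected library overlapped with control. It rose by 0.59 (standard error 0.11, adjusted p = 0.04) after formalin and 0.63 (standard error 0.11, adjusted p = 0.00061) after CFA, comparisons that share their control libraries. The formalin call was lost in 12 of the 18 fits that left out 1 library, with adjusted p up to 0.10, and with the BNST libraries alone its adjusted p was 0.35. Without BNST CFA replicate 2, the library richest in choroid plexus markers, the CFA change was 0.48 with an adjusted p of 0.0019, just under the fold threshold. BNST CFA replicates 1 and 3, with 229 and 189 CPM of choroid plexus markers, held 85.9 and 70.0 CPM of Slc2a1. The BNST formalin libraries held 3012, 9134 and 5894 CPM of these markers, where BNST control held 37.5 to 780. The part of choroid plexus in the Slc2a1 changes was not tested. In the mPFC Slc2a1 was at 40.9, 41.1 and 50.1 CPM in control, 44.6, 41.7 and 40.9 after formalin and 48.5, 51.1 and 49.8 after CFA, each injected group overlapping with control, and the changes were -0.05 (standard error 0.11, adjusted p = 0.91) and 0.18 (standard error 0.11, adjusted p = 0.52). The remaining transporters, the drug efflux pump Abcb1a and the organic anion transporter Slco1a4, were called in no treatment comparison in edgeR. Slco1a4 was at 35.9, 45.1 and 46.2 CPM in mPFC control and 19.4, 19.3 and 17.8 CPM after CFA, groups that did not overlap, with -1.17 (standard error 0.34, adjusted p = 0.15), and DESeq2 called it lower.

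**Figure D2:**
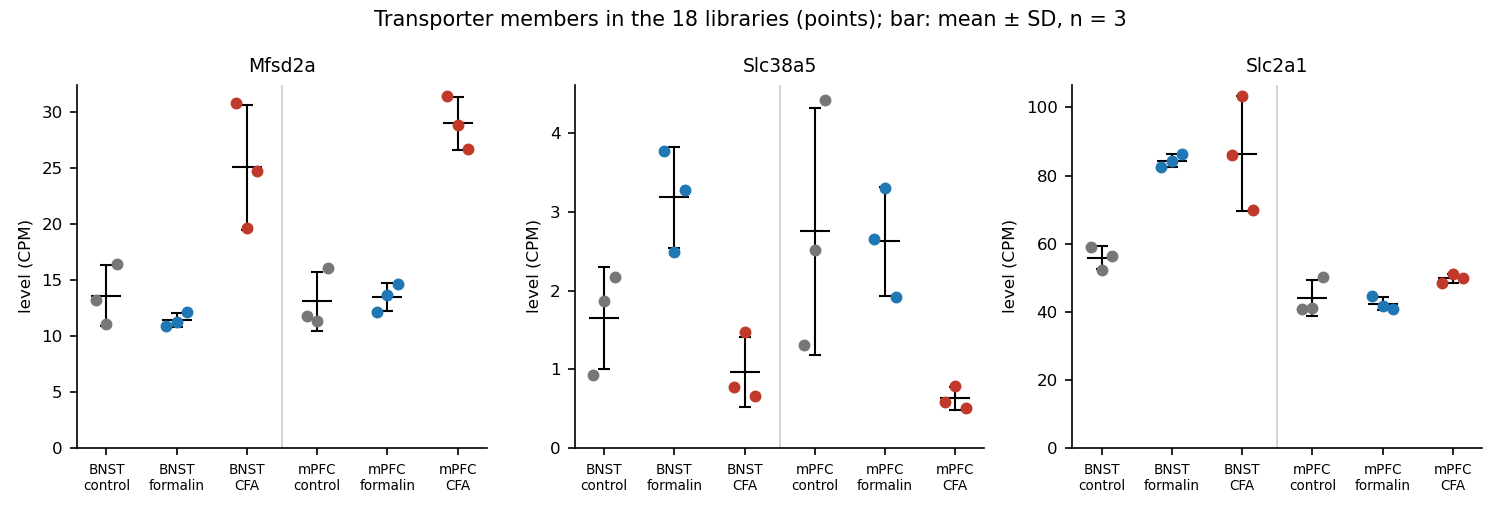
Level in CPM (vertical axis) of Mfsd2a, Slc38a5 and Slc2a1 in each library (points) of the 6 groups (horizontal axis), with the mean and SD of 3 libraries. The CFA libraries of Mfsd2a sit between 19.7 and 31.4 CPM in both regions, above all control and formalin libraries.

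In the BNST after CFA, the pericyte, smooth muscle and adhesion genes that were called all fell. Of the 39 vascular genes, 2 rose and 7 fell, 23.1% of them, where 11.9% of all genes tested were called, 4.89% higher and 7.06% lower. The 2 that rose were the transporters Mfsd2a and Slc2a1, and those that fell were Ptprb, Egfl7, Pdgfrb, Atp13a5, Notch3, Myl9 and Itga1. The median log2 fold change was -0.27 over the 39 genes and 0.01 over all genes, and 31 of the 39 were below 0, with 51.5% of all genes above 0. Without BNST CFA replicate 2 the count was 5, of 9.31% of genes called, with Ptprb, Slc2a1, Egfl7, Pdgfrb and Notch3 lost and Acta2 gained. Formalin gave 1 call in the BNST, Slc2a1, where 0.3% of all genes were called, 0.195% higher, and the median was 0.07, with -0.04 over all genes.

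Pdgfrb, the receptor that holds pericytes on the capillary, was at 17.3, 18.3 and 21.1 CPM in control, 19.4, 20.8 and 18.6 after formalin and 14.3, 9.71 and 13.3 after CFA in the BNST. All 3 CFA libraries were below the rest, and the change was -0.60 (standard error 0.14, adjusted p = 0.0056) against control and formalin against CFA gave 0.66 (standard error 0.14, adjusted p = 0.0056). Without BNST CFA replicate 2 the change against control was -0.45, under the fold threshold. Atp13a5, a transport ATPase and pericyte marker, was at 6.37, 9.47 and 10.9 CPM in control, 6.42, 7.697 and 7.48 after formalin and 4.75, 3.3996 and 4.46 after CFA. Its CFA libraries were again the lowest, with -1.08 (standard error 0.19, adjusted p = 0.00069) against control, a call kept in all 18 fits that left out 1 library, and 0.78 (standard error 0.19, adjusted p = 0.012) for formalin against CFA, where the adjusted p without BNST formalin replicate 2 was 0.050. Notch3, the Notch receptor of mural cells, was at 17.5, 28.2 and 26.3 CPM in control, 17.9, 25.5 and 26.7 after formalin and 16.1, 15.03 and 17.6 after CFA. Control replicate 1 lay among the CFA libraries, so these groups overlapped, while all formalin libraries were above the CFA libraries. The change was -0.57 (standard error 0.16, adjusted p = 0.018) against control, lost in 4 of the 18 fits (without BNST control 2 or 3, or CFA 1 or 2), and 0.53 (standard error 0.16, adjusted p = 0.036) for formalin against CFA, lost without BNST formalin 2 or 3 or any of the 3 CFA libraries.

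Of the other pericyte genes in the BNST, Rgs5, a regulator of G-protein signalling, was at 35.9, 48.98 and 38.7 CPM in control, 54.6, 48.6 and 46.9 after formalin and 39.6, 37.8 and 29.1 after CFA. The formalin group lay within or above the control range and the CFA change was -0.22 (standard error 0.13, adjusted p = 0.24). Vtn was at 25.03, 40.3 and 30.6 CPM in control, 33.9, 36.5 and 33.9 after formalin and 27.8, 34.4 and 20.99 after CFA, and all 3 groups overlapped. Kcnj8 and Abcc9, which together form an ATP-sensitive potassium channel, and the aminopeptidase Anpep were called in no treatment comparison of either region in edgeR. DESeq2 called Abcc9 lower after formalin than after CFA in the mPFC.

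Myl9 and Acta2 were higher after formalin than after CFA in the BNST. Myl9, the regulatory light chain of smooth muscle myosin, was at 6.18, 6.29 and 7.31 CPM in control, 8.66, 9.38 and 6.21 after formalin and 3.15, 4.58 and 3.52 after CFA. The CFA libraries were the lowest of the region, with -0.81 (standard error 0.22, adjusted p = 0.014) against control and 1.10 (standard error 0.22, adjusted p = 0.0035) for formalin against CFA. Without BNST CFA replicate 1 the call against control was lost (adjusted p = 0.057). Acta2, smooth muscle actin, was at 4.51, 3.799 and 6.501 CPM in control, 9.78, 7.37 and 6.17 after formalin and 2.21, 4.29 and 2.16 after CFA. Each formalin library was above each CFA library, with 1.42 (standard error 0.34, adjusted p = 0.01), while CFA against control gave -0.77 (standard error 0.34, adjusted p = 0.11). Leaving out BNST CFA replicate 1 gave an adjusted p of 0.051 for formalin against CFA. Tagln, with 0 to 15 reads per library, was at 0.618, 0.34 and 0.31 CPM in control, 0.53, 0.271 and 0.638 after formalin and 0, 0.394 and 0.141 after CFA and was not called. The summed level of the 3 contractile genes was 11.95 ± 1.92 CPM in BNST control, 16.3 ± 3.04 after formalin and 6.81 ± 2.13 after CFA (SD, n = 3).

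Itga1, the collagen-binding integrin subunit, was at 6.74, 9.64 and 11.2 CPM in control, 8.84, 8.67 and 8.04 after formalin and 5.02, 5.67 and 4.23 after CFA in the BNST. The CFA libraries were below all others. It changed by -0.89 (standard error 0.19, adjusted p = 0.0034) against control, kept in all 18 fits that left out 1 library, and by 0.78 (standard error 0.19, adjusted p = 0.012) for formalin against CFA, lost without BNST CFA replicate 3. Mcam (CD146), an adhesion molecule of mural and endothelial cells, was at 37.6, 21.7 and 26.4 CPM in control, 35.4, 36.3 and 36.999 after formalin and 24.6, 20.3 and 16.8 after CFA. Control replicate 1 reached the formalin level and the other control libraries lay nearer to CFA. Formalin against CFA gave 0.82 (standard error 0.18, adjusted p = 0.0082), kept in all 18 fits, and CFA against control -0.47 (standard error 0.19, adjusted p = 0.075).

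**Figure D3:**
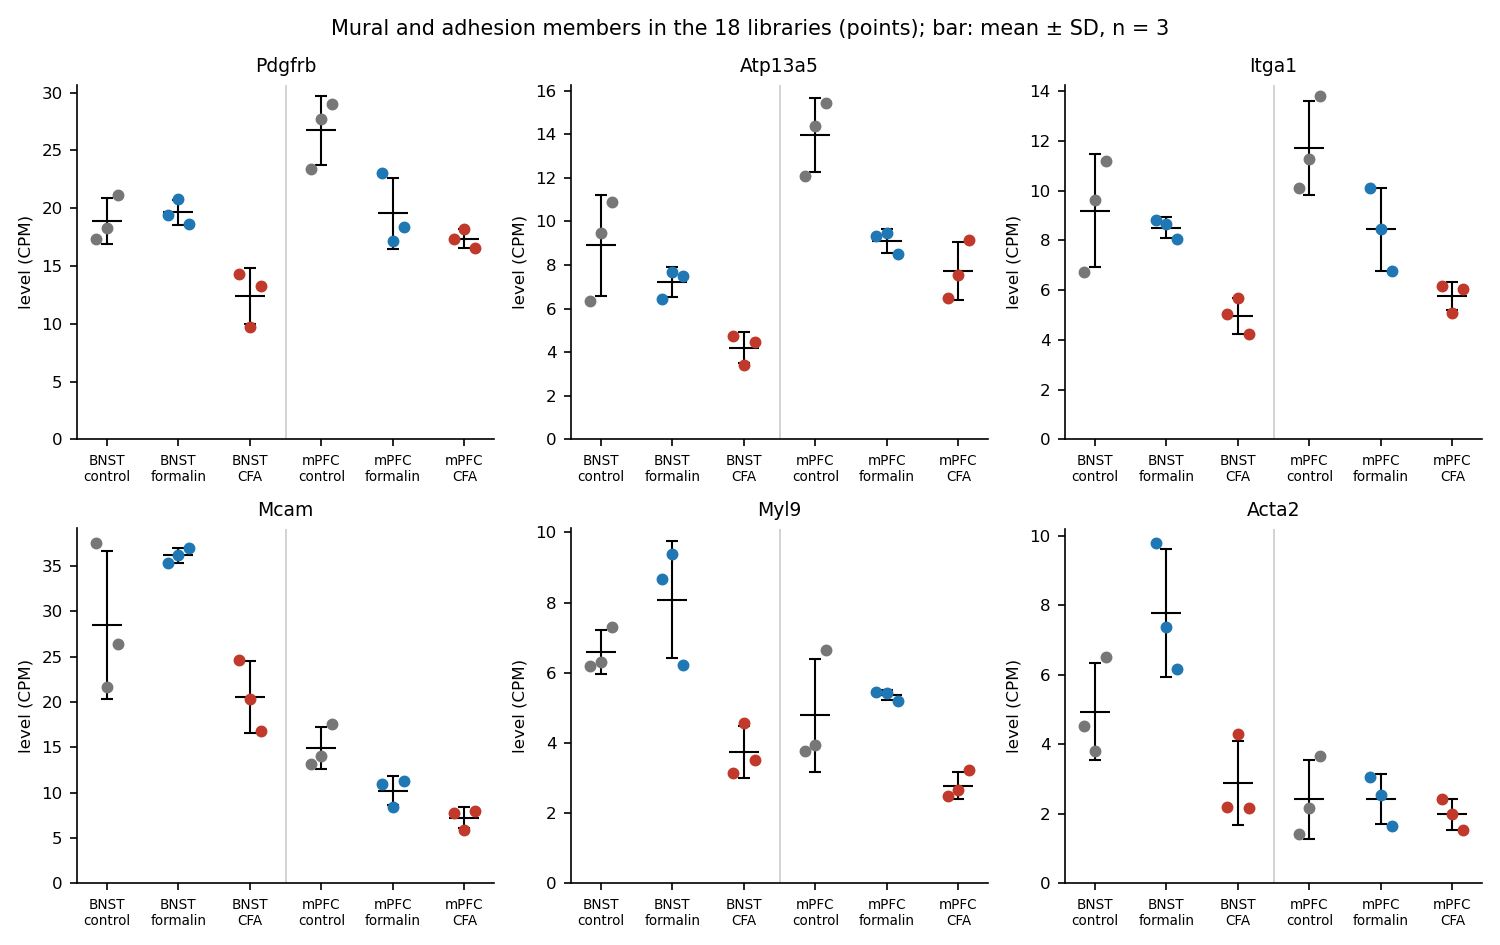
Level in CPM (vertical axis) of 4 mural and 2 adhesion genes in each library (points) of the 6 groups (horizontal axis), with the mean and SD of 3 libraries. In the BNST the CFA points of Pdgfrb, Atp13a5, Itga1 and Myl9 lie below every control and formalin point.

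Among the endothelial genes of the BNST, Ptprb, a phosphatase that acts on the receptor Tek and the cadherin Cdh5, was at 14.3, 21.4 and 22.4 CPM in control, 19.5, 18.8 and 25.6 after formalin and 15.7, 11.97 and 11.6 after CFA. Control replicate 1 lay among the CFA libraries and the formalin libraries were above them. The change was -0.57 (standard error 0.19, adjusted p = 0.039) against control, lost without BNST control 2 or 3 or CFA 2 or 3, and 0.70 (standard error 0.19, adjusted p = 0.019) for formalin against CFA, lost without BNST formalin 3 or CFA 3. Egfl7, a secreted matrix protein of endothelium, was at 7.05, 10.7 and 8.42 CPM in control, 6.95, 5.204 and 7.36 after formalin and 7.505, 5.32 and 5.45 after CFA, and the groups overlapped. It changed by -0.52 (standard error 0.17, adjusted p = 0.036) against control, lost without BNST control 2 or 3 or CFA 2 or 3. Ecscr, an endothelial surface regulator of cell migration, gave 10 to 44 reads per library and was at 1.54, 1.59 and 1.42 CPM in control, 1.65, 1.95 and 1.36 after formalin and 0.828, 1.08 and 0.751 after CFA. Its formalin libraries were above its CFA libraries, with 0.89 (standard error 0.29, adjusted p = 0.049), a call lost in 13 of the 18 fits that left out 1 library and in DESeq2 (adjusted p = 0.056). The tight-junction claudin Cldn5 was at 9.39, 14.6 and 6.93 CPM in control, 10.7, 8.62 and 13.7 after formalin and 11.6, 6.75 and 6.57 after CFA, all overlapping, and gave -0.32 (standard error 0.29, adjusted p = 0.47) for CFA. Eng, a co-receptor for TGF-beta ligands, was at 7.11, 9.47 and 6.93 CPM in control, 7.78, 6.505 and 10.3 after formalin and 7.45, 6.85 and 6.902 after CFA, Sox18 at 0.927, 2.83 and 1.49 CPM in control, 1.94, 2.22 and 2.55 after formalin and 2.26, 0.985 and 1.69 after CFA, and Ly6c1 at 12.9, 14.5 and 10.1 CPM in control, 11.96, 8.51 and 9.53 after formalin and 10.98, 14.6 and 10.8 after CFA. None of these was called, and each of their groups overlapped with control.

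Set side by side in the BNST, formalin was above CFA in each of the 13 mural and adhesion genes. Of the 39 genes, 10 were higher and 1, Mfsd2a, was lower after formalin, 28.2% of them, where 6.87% of all genes were called, 3.91% higher and 2.96% lower. The 10 were Ptprb, Ecscr, Slc38a5, Pdgfrb, Atp13a5, Notch3, Acta2, Myl9, Mcam and Itga1. The median log2 fold change was 0.42 over the 39 genes, 0.66 over the 13 mural and adhesion genes and -0.01 over all genes. Above 0 were 31 of the 39 genes, with 48.9% of all genes, and 15 of the 39 did not overlap between the groups, 14 of them higher after formalin, where 32.1% of all genes did not overlap, 14.3% higher. Leaving out BNST CFA replicate 3 gave 7 calls.

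In the mPFC most vascular genes had lower levels after either injection than in control. After CFA 1 gene, Mfsd2a, rose and 7 fell (Ptprb, Slc38a5, Ushbp1, Pdgfrb, Atp13a5, Mcam and Itga1), 20.5% of the 39, where 0.632% of all genes were called, 0.337% higher and 0.295% lower. The median log2 fold change was -0.62 over the 39 genes and 0.00 over all genes. After CFA 25 of the 39 genes lay below control without overlap, where 12.3% of all genes did. After formalin 1 gene fell, Ushbp1, where 0.269% of all genes were called, 0.0632% higher and 0.205% lower. In that comparison 17 genes lay below control without overlap, where 13.1% of all genes did, and the median was -0.45, with 0.00 over all genes. Above 0 were 8 of the 39 genes after formalin and 6 after CFA, with 49% and 49.8% of all genes. Both comparisons share the 3 control libraries. At an unadjusted p under 0.05 there were 24 of the 39 genes after CFA and 20 after formalin, with 13.8% and 14.1% of all genes.

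These mPFC counts rested on single libraries and on the libraries fitted together. The CFA count was 1 without mPFC CFA 1, CFA 3, control 2 or control 3, and 2 without CFA 2, with Mfsd2a kept in each, where 0.16% to 0.307% of all genes were called. Leaving out BNST formalin 2, BNST formalin 3 or mPFC formalin 1 gave 5, 4 and 5. With the 9 mPFC libraries alone, where the spread was not shared with the BNST, the count was 20 for CFA and 13 for formalin, where 2.84% and 1.44% of all genes were called, and with DESeq2 16 and 5, where 1.36% and 0.7% were called. The formalin call was lost when any one of the mPFC control or mPFC formalin libraries or mPFC CFA 1 was left out, and the count was 2 without BNST CFA 2.

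Mitochondrial and microglia sums were above control in the mPFC after formalin and within the control range after CFA. The 13 mitochondrially encoded transcripts summed to 41155 to 54296 CPM in mPFC control, 61789 to 70767 after formalin and 47879 to 50046 after CFA. The 10 microglia markers summed to 355 to 432 CPM in control, 446 to 487 after formalin and 389 to 403 after CFA. The part of these sums in the vascular differences was not tested.

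Ushbp1, a partner of the scaffold protein harmonin, was at 4.99, 5.88 and 6.38 CPM in control, 2.79, 2.1996 and 1.64 after formalin and 2.78, 2.25 and 3.35 after CFA in the mPFC. Its 3 control libraries were above all others. It changed by -1.36 (standard error 0.24, adjusted p = 0.032) after formalin and by -1.04 (standard error 0.24, adjusted p = 0.047) after CFA. Ptprb was at 26.3, 34.2 and 35.1 CPM in control, 26.4, 19.04 and 19.7 after formalin and 15.1, 18.2 and 15.2 after CFA. The CFA libraries were below all others, formalin replicate 1 reached the control range, and the changes were -0.98 (standard error 0.19, adjusted p = 0.019) for CFA and -0.55 (standard error 0.18, adjusted p = 0.18) for formalin.

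Pdgfrb was at 23.38, 27.8 and 29.1 CPM in control, 23.1, 17.2 and 18.4 after formalin and 17.4, 18.2 and 16.5 after CFA in the mPFC. The CFA libraries lay below control, as did the formalin libraries, of which replicate 1 was close to the lowest control. CFA gave -0.62 (standard error 0.14, adjusted p = 0.044). Atp13a5 was at 12.1, 14.4 and 15.4 CPM in control, 9.32, 9.49 and 8.49 after formalin and 6.5003, 7.54 and 9.14 after CFA, with control above both injected groups and -0.85 (standard error 0.18, adjusted p = 0.037) for CFA. Rgs5 was at 59.7, 76.7 and 81.4 CPM in control, 73.4, 70.4 and 74.4 after formalin and 51.5, 47.4 and 51.4 after CFA. Its CFA libraries were below the rest and formalin lay within the control range, and formalin against CFA gave 0.54 (standard error 0.13, adjusted p = 0.043). Vtn was at 42.03, 48.7 and 55.9 CPM in control, 44.4, 39.5 and 35.7 after formalin and 38.5, 39.2 and 40.4 after CFA, with all CFA libraries under the lowest control, and Notch3 was at 15.6, 17.5 and 18.04 CPM in control, 12.1, 11.5 and 11.1 after formalin and 10.2, 11.6 and 12.4 after CFA, with both injected groups under control. Neither was called in edgeR, at -0.31 (standard error 0.17, adjusted p = 0.45) and -0.58 (standard error 0.17, adjusted p = 0.11) for CFA, and DESeq2 called Notch3 lower.

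Mcam was at 13.1, 14.1 and 17.6 CPM in control, 10.99, 8.39 and 11.3 after formalin and 7.8004, 5.89 and 7.98 after CFA in the mPFC. Control, formalin and CFA stood apart in that order, without overlap, and CFA gave -1.05 (standard error 0.20, adjusted p = 0.019) and formalin -0.54 (standard error 0.19, adjusted p = 0.21). Itga1 was at 10.1, 11.3 and 13.8 CPM in control, 10.1, 8.45 and 6.78 after formalin and 6.15, 5.09 and 6.05 after CFA. The CFA libraries were the lowest and formalin reached the control range, with -1.02 (standard error 0.19, adjusted p = 0.016) for CFA. Myl9 was at 3.78, 3.95 and 6.65 CPM in control, 5.45, 5.43 and 5.202 after formalin and 2.48, 2.65 and 3.22 after CFA. Its CFA libraries were under all others, and formalin was higher than CFA by 0.95 (standard error 0.23, adjusted p = 0.043). Acta2 was at 1.42, 2.17 and 3.65 CPM in control, 3.06, 2.54 and 1.64 after formalin and 2.42, 1.98 and 1.54 after CFA, and all 3 groups overlapped.

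Cldn5 was at 14.9, 18.2 and 14.5 CPM in control, 13.7, 11.1 and 8.76 after formalin and 10.2, 5.95 and 9.91 after CFA in the mPFC. Both injected groups were under control, with -0.87 (standard error 0.29, adjusted p = 0.19) for CFA, which was not called. Eng was at 13.7, 12.1 and 14.2 CPM in control, 9.82, 9.21 and 7.73 after formalin and 8.096, 7.94 and 9.91 after CFA and gave -0.62 (standard error 0.17, adjusted p = 0.092). Egfl7 was at 16.7, 19.1 and 18.9 CPM in control, 14.5, 13.7 and 12.7 after formalin and 11.996, 10.8 and 12.7 after CFA and gave -0.62 (standard error 0.16, adjusted p = 0.086). Both had their 3 control libraries above every injected library. Sox18 was at 2.21, 2.37 and 3.05 CPM in control, 1.89, 2.34 and 1.095 after formalin and 2.01, 1.39 and 1.74 after CFA, and Ly6c1 at 14.5, 12.9 and 18.8 CPM in control, 11.7, 11.4 and 12.2 after formalin and 11.8, 13.4 and 12.4 after CFA, with all CFA libraries of Sox18 below its control. Ecscr was at 1.05, 2.17 and 2.34 CPM in control, 1.62, 2.06 and 2.19 after formalin and 0.827, 0.661 and 0.837 after CFA. Its CFA libraries were the lowest, formalin lay within the control range, and formalin against CFA gave 1.32 (standard error 0.30, adjusted p = 0.034).

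Between formalin and CFA in the mPFC, 4 genes were higher after formalin (Ecscr, Slc38a5, Rgs5 and Myl9) and Mfsd2a was lower, 12.8% of the 39, where 0.932% of all genes were called, 0.374% higher and 0.558% lower. The median log2 fold change was 0.16 over the 39 genes and 0.00 over all genes. Above 0 were 27 of the 39, with 49.5% of all genes, and 13 of the 39 did not overlap, where 28.3% of all genes did not. The count was 1, Mfsd2a, without mPFC CFA 1, 2 or 3 or formalin 1 or 3, 2 without formalin 2 and 3 without control 2.

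**Figure D4:**
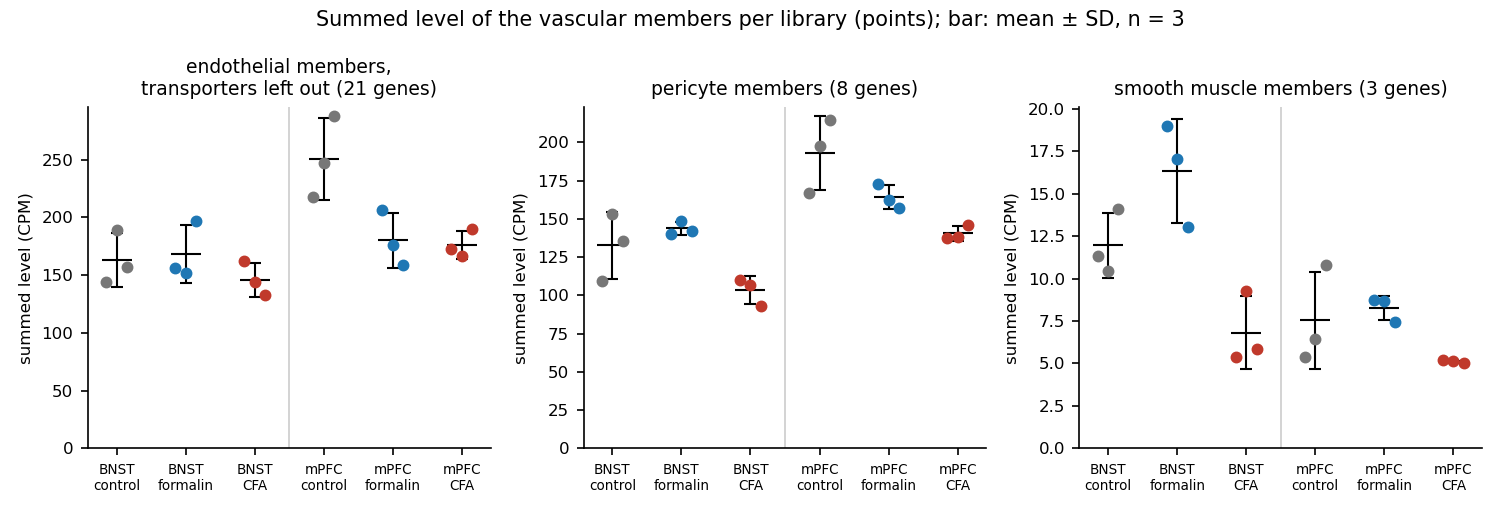
Summed level in CPM (vertical axis) of 21 endothelial genes without the transporters, 8 pericyte genes and 3 smooth muscle genes in each library (points) of the 6 groups (horizontal axis), with the mean and SD of 3 libraries. The 3 mPFC control libraries are the highest of all 18 in the endothelial sum, at 218 to 288 CPM.

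The summed levels set the classes side by side, and these did not all move alike. The 21 endothelial genes that are not transporters summed to 218 to 288 CPM in mPFC control, 159 to 206 after formalin and 166.9 to 190.2 after CFA, so both injected groups were below control. In the BNST the ranges were 144 to 189 CPM, 152 to 197 and 133 to 162, which overlapped. The 8 pericyte genes summed to 193 ± 23.99 CPM in mPFC control, 164 ± 8.04 after formalin and 140.4 ± 4.61 after CFA (SD, n = 3). In the BNST they summed to 133 ± 22.1 CPM, 144 ± 4.40 and 103 ± 8.96, with BNST CFA and control overlapping. As a percentage of the endothelial sum, the pericyte genes were 74.5 to 80.0% in mPFC control, 84.0 to 98.9% after formalin and 76.6 to 82.8% after CFA. In the BNST they were 76.1 to 86.2% in control, 72.2 to 97.7% after formalin and 68.1 to 74.4% after CFA, with CFA below control. The 3 smooth muscle genes summed to 7.54 ± 2.87 CPM in mPFC control, 8.29 ± 0.716 after formalin and 5.13 ± 0.094 after CFA (SD, n = 3). As a percentage of the endothelial sum they were 2.46 to 3.75%, 4.24 to 4.92% and 2.64 to 3.09%, with formalin above control. In the BNST the percentages were 5.51 to 8.99%, 6.60 to 12.2% and 3.31 to 6.44%, each injected group overlapping with control.

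The change after an injection was compared between the regions by an interaction term. None of the 39 genes was called in edgeR for either injection, where 0.158% of all genes were called for formalin and 4.17% for CFA. At an unadjusted p under 0.05 there were 12 of the 39 for formalin and 5 for CFA, with 14.6% and 19.4% of all genes. DESeq2 called 3 for formalin (Kdr, Slc2a1 and Mcam) and 0 for CFA, where it called 1.44% and 5.4% of all genes. The edgeR count for formalin was 2 without BNST CFA 2 and 1 without BNST control 1 or BNST CFA 3, and for CFA it was 1 without BNST CFA 3. The median interaction was 0.51 for formalin and 0.32 for CFA (BNST minus mPFC, log2 scale), with -0.03 and 0.02 over all genes, and 36 of the 39 genes were above 0 for formalin and 32 for CFA, with 45.9% and 52.2% of all genes. For Slc2a1 it was 0.65 (standard error 0.15, adjusted p = 0.085), and for Kdr, the main receptor for vascular endothelial growth factor, 1.19 (standard error 0.33, adjusted p = 0.12).

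In control mice many endothelial and pericyte genes were lower in the BNST than in the mPFC, and Mcam and Acta2 were higher. Of the 39 genes 18 were lower and 2 higher, 51.3% of them, where 26.6% of all genes were called, 14.7% higher and 12% lower. The median log2 fold change was -0.62 over the 39 genes and 0.04 over all genes. Above 0 were 8 of the 39, with 53.1% of all genes, and 18 were lower without overlap, where 23.2% of all genes were. The largest of the lower calls were Anpep at -1.70 (standard error 0.50, adjusted p = 0.012), Egfl7 at -1.06 (standard error 0.16, adjusted p = 5.8e-05), Ushbp1 at -1.04 (standard error 0.24, adjusted p = 0.0018) and Esam, a junction adhesion molecule, at -0.85 (standard error 0.22, adjusted p = 0.0059). Egfl7 was at 7.05, 10.7 and 8.42 CPM in the BNST and 16.7, 19.1 and 18.9 CPM in the mPFC, well apart. Anpep was at 0.124, 1.59 and 1.05 CPM and 4.36, 2.27 and 2.51 CPM, with BNST control replicate 1 far below the rest. Its call was lost without mPFC control replicate 1 (adjusted p = 0.065). Acta2 gave 1.03 (standard error 0.35, adjusted p = 0.025) and Mcam 0.93 (standard error 0.19, adjusted p = 0.00076). The Acta2 call was lost without BNST control 3 or mPFC control 1 or 2, with adjusted p up to 0.12. Mcam kept its call in all 18 fits that left out 1 library. Of the 20 calls, 11 were lost in at least 1 of these fits.

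The count between the regions changed with the block and the lane. With the animal number as a block the count in control was 9, 3 higher and 6 lower, where 20.2% of all genes were called, and with the lane 2 libraries alone it was 12, where 22.5% were called. Ushbp1 and Esam lost their calls in both, with adjusted p of 0.060 and 0.083 under the block and 0.055 and 0.096 in lane 2, while Anpep, Egfl7, Acta2 and Mcam kept theirs. Over the 3 treatments, 9 libraries against 9, 4 genes were higher (Slc2a1, Notch3, Acta2 and Mcam) and 8 lower (Esam, Tek, Sox17, Egfl7, Rgs5, Abcc9, Atp13a5 and Anpep), 30.8% of the 39, where 37.2% of all genes were called, 20.9% higher and 16.3% lower, so the share was below that of all genes. The median was -0.33, with 0.02 over all genes. The firmest differences of this comparison were Mcam at 1.42 (standard error 0.11, adjusted p = 5.5e-09), Slc2a1 at 0.71 (standard error 0.06, adjusted p = 1.9e-08) and Egfl7 at -1.03 (standard error 0.10, adjusted p = 3.8e-08). Notch3 gave 0.67 (standard error 0.09, adjusted p = 6.0e-06), Acta2 1.08 (standard error 0.20, adjusted p = 0.00016) and Anpep -1.11 (standard error 0.28, adjusted p = 0.0025). Slc2a1 and Egfl7 did not overlap between the 9 BNST and the 9 mPFC libraries. The choroid plexus levels given above differ between the regions as well, and their part was not tested.

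**Figure D5:**
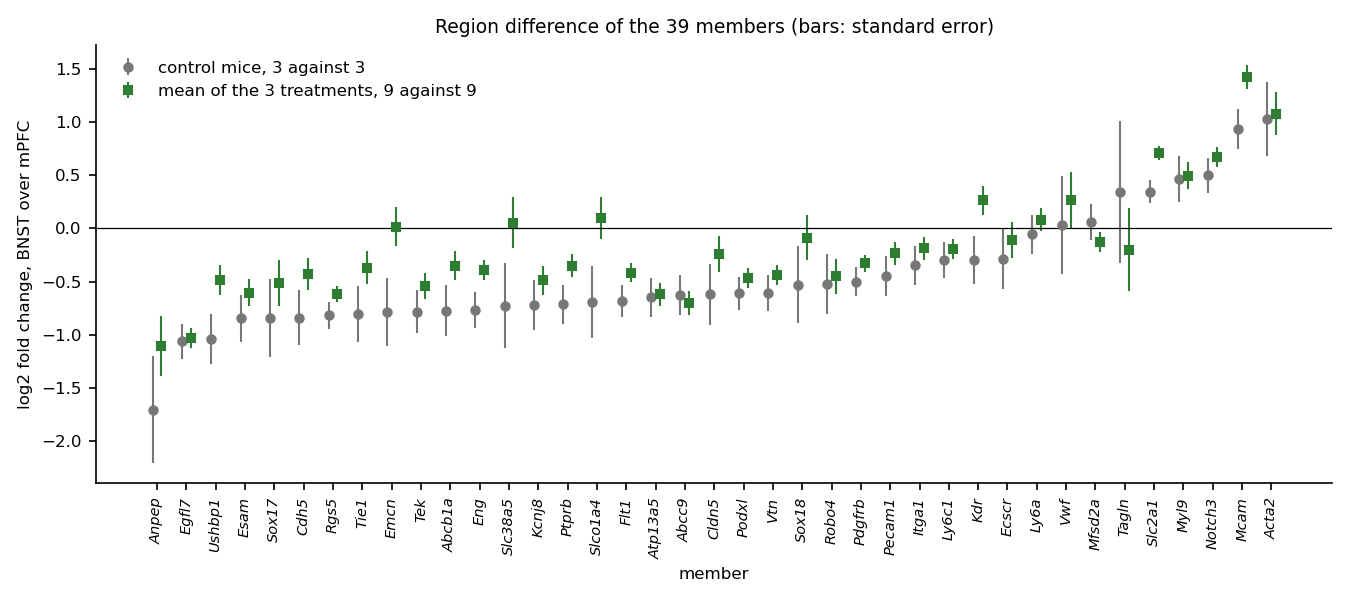
log2 fold change of the BNST over the mPFC (vertical axis) for each of the 39 genes (horizontal axis), with its standard error, in control mice (circles) and as the mean of the 3 treatments (squares). Acta2 and Mcam lie above 0 in both, at 1.03 and 0.93 in control, and Egfl7 lies near -1 in both.

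The ligands and partners of these receptors were read from lists of other vascular genes. Angpt1 and Angpt2, the agonist and the context-dependent ligand of the receptor Tek, rose in the BNST after CFA, 2 of the 13 tested vascular growth factors and receptors, or 15.4%, where 11.9% of all genes were called, so the share was near that of all genes. Angpt2 was at 1.298, 1.47 and 1.18 CPM in control, 1.59, 2.11 and 2.76 after formalin and 3.697, 4.63 and 4.98 after CFA. The CFA libraries were above all others of the region, with 1.75 (standard error 0.25, adjusted p = 0.00012) against control, and -1.03 (standard error 0.23, adjusted p = 0.008) for formalin against CFA. Angpt1 was at 3.52, 4.82 and 4.71 CPM in control, 9.55, 7.21 and 7.48 after formalin and 9.99, 10.2 and 9.67 after CFA and changed by 1.19 (standard error 0.23, adjusted p = 0.0013). Its CFA libraries were above all others too, though formalin lay well above control. DESeq2 called Angpt1 higher after formalin than in control, at 0.91, where it called 2.12% of all genes, and edgeR did not call it. In the mPFC, Angpt2 was at 1.42, 0.889 and 1.31 CPM in control and 0.946, 1.19 and 0.901 CPM after CFA, and the region difference of the CFA change was 1.996 (standard error 0.37, adjusted p = 0.0039) for Angpt2 and 1.53 (standard error 0.32, adjusted p = 0.0092) for Angpt1. The edgeR calls of Angpt1 and Angpt2 were kept in all 18 fits that left out 1 library. Neurons and astrocytes express angiopoietins as well, and the part of the striatal and habenular levels given above, which moved with BNST CFA, was not tested. Tek itself was at 4.88, 7.94 and 7.49 CPM in control, 6.19, 5.96 and 5.87 after formalin and 6.73, 4.19 and 4.32 after CFA in the BNST, not called.

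Of 18 Notch and TGF-beta genes, 3 rose and 2 fell in the BNST after CFA, 27.8% of them, where 11.9% of all genes were called, 4.89% higher and 7.06% lower. Acvrl1, an endothelial receptor for bone morphogenetic proteins, fell, at -1.76 (standard error 0.39, adjusted p = 0.0053), with 12.9, 24.4 and 4.77 CPM in control and 4.41, 4.78 and 3.29 CPM after CFA. The control libraries were far apart and the lowest of them was at the CFA level, though the call was kept in all 18 fits that left out 1 library. Id1, a target of that receptor, rose by 1.14 (standard error 0.37, adjusted p = 0.039) and Hey2, a Notch target, by 0.91 (standard error 0.27, adjusted p = 0.023), and without BNST CFA replicate 2 both calls were lost, at 0.34 and 0.36 with adjusted p of 0.32 and 0.21. Id1 was lost in 9 of the 18 fits and Hey2 in 3. The receptor Tgfbr2 rose by 0.74 (standard error 0.18, adjusted p = 0.0068), lost without BNST CFA replicate 2 at 0.46, and the ligand Dll1 fell, at -0.63 (standard error 0.17, adjusted p = 0.013), lost without BNST control replicate 3. In the mPFC after formalin, Dll4, the Notch ligand of endothelial tip cells, was the 1 called gene of these 18, where 0.269% of all genes were called. It was at 2.36, 2.02 and 1.96 CPM in control, 0.495, 0.619 and 0.342 after formalin and 1.65, 1.65 and 1.16 after CFA. The formalin libraries were below both other groups, with -2.11 (standard error 0.35, adjusted p = 0.027) against control and -1.60 (standard error 0.36, adjusted p = 0.031) against CFA, and the call against control was lost when any mPFC control library or mPFC formalin 1 or 3 was left out. Tgfbr2 rose in the BNST after formalin, by 0.83 (standard error 0.18, adjusted p = 0.049), a call lost in 15 of the 18 fits that left out 1 library. It was the 1 call of the list there in edgeR, where 0.3% of all genes were called, while DESeq2 called 5 of the 18, all higher (Tgfbr2, Hey2, Hes1, Id1 and Id3), and 2.12% of all genes. For formalin against CFA, Notch1 was higher in the BNST, at 0.63 (standard error 0.12, adjusted p = 0.0037), kept in all 18 fits. Smad7 was lower in the mPFC, at -0.51 (standard error 0.09, adjusted p = 0.0083), lost in 3 fits. Of all genes 6.87% and 0.932% were called in these comparisons.

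Of 19 genes of the Wnt pathway that builds the barrier, 2 were called in the BNST after CFA, 10.5% of them, a share below the 11.9% of all genes. Lef1, a transcription factor of the pathway, rose by 1.66 (standard error 0.55, adjusted p = 0.043), lost in 15 of the 18 fits, and Reck, a Wnt co-receptor component, fell, at -0.52 (standard error 0.16, adjusted p = 0.027), lost in 4. For formalin against CFA, Apcdd1 was higher in the BNST, at 0.57 (standard error 0.19, adjusted p = 0.048), lost in 11 fits. In the mPFC Ndp was higher, at 0.70 (standard error 0.17, adjusted p = 0.049), lost in 14. Of all genes 6.87% and 0.932% were called. DESeq2 called Fzd4 higher in the BNST after formalin and CFA, at 1.74 and 1.44, and Foxf2 lower in the mPFC after formalin, at -1.19. It called 2.12%, 12.6% and 0.7% of all genes there. Ednra, the endothelin receptor of smooth muscle, was higher after formalin than after CFA in the BNST, at 0.95 (standard error 0.27, adjusted p = 0.024). It was the 1 call among 17 further mural genes, where 6.87% of all genes were called, so the share was near that of all genes. The Ednra call was lost without BNST formalin 1 or 3 or CFA 3. Of 18 further junction and transporter genes and 14 tested genes of inflamed endothelium, edgeR called 0 in the 6 treatment comparisons. Of all genes it called 0.269% to 11.9%, depending on the comparison. An unadjusted p under 0.05 was found for 0 to 10 and 0 to 4 of them, and for 13.8% to 36.5% of all genes. In the same 6 comparisons DESeq2 called 0 of the junction and transporter genes and 1 of the inflamed endothelium genes each in BNST CFA and mPFC formalin. Of all genes it called 12.6% and 0.7% in these 2 comparisons. For the region difference of the CFA change, edgeR called Jam2 and Slc16a1 of the junction and transporter genes. They gave 0.55 (standard error 0.13, adjusted p = 0.023) and 0.65 (standard error 0.18, adjusted p = 0.046), lost in 5 and 13 of the 18 fits. Of all genes 4.17% were called there.

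Within groups the levels of the endothelial genes tended to vary together from library to library, though not in every pair. After the group means were removed from log2 CPM, the 325 pairs of endothelial genes had a median Pearson r of 0.34 over 18 libraries, from -0.55 to 0.86 and positive in 287 pairs, and the 208 pairs of an endothelial with a pericyte gene had a median of 0.28. The 78 pairs of an endothelial with a smooth muscle gene had a median of 0.08, with -0.19 in the BNST and 0.46 in the mPFC. No such value over pairs of all genes is given here. Abcb1a tracked the mean of the other endothelial genes most closely, at r = 0.89, and Mfsd2a at r = 0.04 hardly did. Mcam was at 0.03 and Tagln at -0.07. These values describe 18 libraries that share dissection and depth.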

How the data were processed

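Poly(A) RNA-seq libraries of 18 tissue samples were compared. The authors trimmed 150 bp reads with Trimmomatic 0.39, aligned them to mm10 with HISAT2 2.2.1 and counted reads per gene with featureCounts 2.0.1, and the deposited table holds these raw counts, with no normalization. Whether the counting used strand is not given in the sources used here. No column of per-sample values was left unused.

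Counts were filtered in edgeR 4.0.16 (R 4.3.3) with filterByExpr (minimum count 10, minimum total 15), scaled by TMM and fitted to the 6 groups together, with 12 residual degrees of freedom. The quasi-likelihood test was used with Benjamini-Hochberg adjustment over the 18994 genes tested. A call needed an adjusted p below 0.05 together with a log2 fold change beyond 0.5 in either direction. Printed CPM are TMM-scaled. TPM used exon lengths of GENCODE M21, and levels between genes were compared in TPM only. The test was checked on simulated counts. Nothing beyond the brains they came from says how replicates were prepared, so p-values measure the spread between these libraries.

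The 39 members and the other lists were chosen with earlier results of these data known. Values in every library are given for genes called in a treatment comparison or interaction and for the gene with the highest TPM in each role; of the region comparison, the 4 largest called changes each way; of other lists, up to 3 called genes. Slco1a4, Tek, Kdr and Tagln fall outside this rule and were named after their values were seen.

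Deviations from the group mean correlated at r of -0.23 to 0.39 between same-numbered libraries of a region, above 0.1 in 5 of 18 pairs. The highest were BNST formalin 2 with BNST CFA 2, at 0.39, and BNST formalin 1 with BNST CFA 1, at 0.25. Libraries of 1 animal number in both regions gave r of -0.05 to 0.19. It was above 0.1 in 2 of 8 pairs, both of them the control pairs, at 0.13 and 0.19. Alternatives were DESeq2 1.42.0, RLE scaling, no filter, no minimum fold change, a block of replicate or animal number, the libraries of lane 2 or of 1 region alone, and each library left out in turn. By the library names, read as lanes, BNST control 1 and 2 ran in lane 1, BNST formalin 1 in lane 3 and the rest in lane 2. A result on 1 list of other cell markers is not reported here.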

Additional observations from a re-analysis of the deposited data

How the results depend on the processing

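Counts of called vascular genes, of 39, moved with the processing in these cases. With the libraries of 1 region fitted alone the count was 0 for BNST formalin (0.00551% of all genes called), 6 for BNST formalin against CFA (2.57%), 13 for mPFC formalin (1.44%), 20 for mPFC CFA (2.84%) and 8 for mPFC formalin against CFA (3.15%). With lane 2 libraries alone it was 0 for BNST formalin (1.9%), 2 for mPFC formalin (0.348%) and 12 for the regions in control (22.5%). DESeq2 gave 5 for mPFC formalin (0.7%), 16 for mPFC CFA (1.36%) and 3 for the region difference of the formalin change (1.44%), where no filter on low counts gave 1 (0.224%). With no minimum fold change the regions over the 3 treatments gave 25 (65.5%). The cause of these shifts was not tested.

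The animal number as a block gave 9 for the regions in control. The replicate number as a block gave 3 in place of 5 for mPFC formalin against CFA and moved no other count by more than 1.5 times. The labels do not say that equal numbers mark shared mice.

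Leaving out each library in turn gave 0 to 1 for BNST formalin, 5 to 10 for BNST CFA, 7 to 16 for BNST formalin against CFA, 0 to 2 for mPFC formalin, 1 to 11 for mPFC CFA, 1 to 6 for mPFC formalin against CFA, 14 to 23 for the regions in control, 11 to 16 over the 3 treatments, 0 to 2 for the region difference of the formalin change and 0 to 1 for that of the CFA change.

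None of the 67 called gene values changed sign, in 402 values under the other alternatives, of which 54 lost the call, or in 1206 values with a library left out. The log2 ratio of summed endothelial genes in BNST CFA turned from 0.12 to -0.10 without the 3 most abundant genes and to -0.38 as a difference of median z-scores, and that of pericyte genes in BNST formalin from 0.11 to -0.049 without the 3 most abundant. Genes of few reads, such as Tagln, Ecscr and Slc38a5, have wide errors at this depth.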
